A study of Mus musculus with 12 samples.

Results

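The 8 genes described here are the liver X receptors (LXRs) and genes of cholesterol efflux and lipid exchange that LXRs are known to regulate: Nr1h3, Nr1h2, Abca1, Abcg1, Apoe, Pltp, Mylip and Lpcat3. They were picked by name, and every probe whose transcript accession belongs to one of them was taken. This gave 10 probes of the 27509 that named 20887 mouse genes on the array. Nr1h3 and Mylip had 2 probes each, and the other 6 genes had 1. All 10 probes were well above background on all 12 arrays, and all 8 genes were among the 13116 genes tested. The study measured RNA of bone marrow-derived macrophages with and without the nuclear receptor ERRα (gene Esrra), with and without a bacterial stimulus, lipopolysaccharide (LPS), on 1-colour Agilent microarrays.

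The 4 groups were ERRα-/- cells given LPS at 100 ng/mL, ERRα-/- cells given PBS, the solvent, ERRα+/+ cells given LPS at 100 ng/mL, and ERRα+/+ cells given PBS. All cells came from the bone marrow of male C57BL6 mice aged 6 to 8 weeks and had been cultured for 5 to 7 days with macrophage colony-stimulating factor. The labels do not say how long the cells were kept in LPS, which part of Esrra the knockout allele lacks, or whether the 3 replicates of a group came from separate mice or cultures, so the p-values below measure only the spread between these samples. Replicate 1 of each group was hybridised on 1 slide (4 arrays), and replicates 2 and 3 on a second slide (8 arrays).

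LXRα (Nr1h3) and LXRβ (Nr1h2) are nuclear receptors that are activated by oxysterols, oxidised derivatives of cholesterol, and bind DNA together with a retinoid X receptor (RXR). In macrophages that hold excess cholesterol they are known to switch on the transporters ABCA1 and ABCG1, which pass cholesterol to lipoproteins outside the cell, and apolipoprotein E, which accepts it. LXRs also restrain inflammatory genes, and Toll-like receptor signalling, the pathway that LPS activates, is known to interfere with the transcription of LXR target genes. ERRα is an orphan nuclear receptor best known as a regulator of mitochondrial genes.

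The LXR-RXR pair binds a DR4 element, a direct repeat of the hexamer AGGTCA with 4 bases between the copies, and ERRα binds an extended hexamer, TCAAGGTCA. RefSeq promoter windows of assembly GRCm38.p6, from 250 bases before to 50 bases after a transcription start, were matched by symbol for 7 of the 8 genes (10 windows); Abcg1 was not matched. On both strands, no window of these genes held the exact hexamer, the ERRα element, an exact DR4 or a DR4 with at most 1 mismatch per copy. Sites outside these windows were not searched and binding was not measured, so this does not show that the genes lack LXR sites. Of all 32851 windows, 16.3% held the hexamer, 0.423% the ERRα element, 0.0152% an exact DR4 and 1.75% a DR4 with at most 1 mismatch per copy. The search was then widened, with these results known, to the closest DR4 in the 250 upstream bases. Among the 7 genes the closest was that of Abca1, with 3 mismatches over both copies, 67 to 52 bases before the start and on the strand opposite to the gene. Of all windows, 18.5% held one as close or closer. The closest DR4 of Nr1h3, the receptor with the larger averaged difference between the genotypes, had 4 mismatches, and 70.6% of all windows held one as close or closer. The stretches below, each read 5′ to 3′ along its gene on the minus strand, have those 16 bases in capitals; their positions are chr4:53159905-53160004 for Abca1 and chr2:91195109-91195208 for Nr1h3.
Abca1: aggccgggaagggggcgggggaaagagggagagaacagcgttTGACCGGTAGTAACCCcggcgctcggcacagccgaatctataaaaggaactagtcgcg
Nr1h3: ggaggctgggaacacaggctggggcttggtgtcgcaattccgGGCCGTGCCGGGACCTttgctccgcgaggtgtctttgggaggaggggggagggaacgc

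Levels are log2 of the processed signal relative to the 75th percentile of the array, and are compared between arrays for 1 probe at a time. Values of a group are given in the order of replicates 1, 2 and 3. A gene is called changed at an adjusted p under 0.05 in limma, with Benjamini-Hochberg adjustment over all genes tested. Esrra itself measured 4.40, 3.92 and 3.83 in ERRα-/- cells given LPS, 2.48, 0.25 and 0.15 in ERRα-/- cells given PBS, 5.87, 6.25 and 6.36 in ERRα+/+ cells given LPS, and 4.54, 4.39 and 4.68 in ERRα+/+ cells given PBS. It was lower in ERRα-/- cells in every same-numbered pair, and in ERRα-/- cells it was higher with LPS by 3.09 ± 0.51 (SE). Averaged over treatments it was lower by 2.84 ± 0.36 (adjusted p = 0.0038). The labels do not say whether its probe lies in the deleted part. The slides stood apart: deviations from the group means correlated between arrays of different slides at -0.71 to -0.17 over all genes tested. The 2 ERRα+/+ PBS arrays of the second slide had a wider spread between spots of the same probe, with median coefficients of variation of 17.1% and 11.9%, against 5.74% to 8.33% on the other 10 arrays. Values with slide as a block, within the second slide, and without those 2 arrays are therefore given beside many of the results, though not beside all. The fit without the 2 arrays also had slide as a block, and left 1 ERRα+/+ PBS array, on the first slide.

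All 7 macrophage markers measured (Adgre1, Csf1r, Itgam, Mrc1, Lyz2, Cd14, Fcgr1) were well above background on every array. Their summed level, as a multiple of the array's 75th percentile, was 1609 to 2029 in ERRα-/- LPS, 1150 to 1627 in ERRα-/- PBS, 1539 to 1843 in ERRα+/+ LPS and 837 to 1477 in ERRα+/+ PBS arrays. The 6 neutrophil markers measured were also all above background, with sums of 316 to 485, 227 to 282, 261 to 525 and 297 to 432 in the same order of groups. The 4 dendritic cell markers other than Xcr1 were above background in ERRα-/- LPS arrays, mainly through Siglech, with sums of 239 to 352 there, 222 to 243, 233 to 324 and, on the 2 arrays without a discarded spot, 66.8 to 201 in ERRα+/+ PBS. Erythroid and megakaryocyte markers summed to 100 to 109, 64.2 to 70.8, 143 to 204 and 72.7 to 119, with Klf1 above background nowhere. The 6 lymphocyte, 4 mast cell and 5 stromal and endothelial markers summed to at most 7.37, 4.11 and 8.79, with Ncr1, Mcpt4 and Fcer1a above background nowhere. The part of these other cells in the results below was not tested. In RNA from whole cultures, fewer cells of a type and less RNA per cell cannot be told apart.

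Of the 2 receptors, Nr1h2 rose with LPS in both genotypes and Nr1h3 did not pass the test. Nr1h2, LXRβ, measured 5.56, 5.58 and 5.47 in ERRα-/- cells given LPS, against 5.15, 4.92 and 5.01 in ERRα-/- cells given PBS. In ERRα+/+ cells Nr1h2 measured 5.58, 5.50 and 5.53 with LPS, against 5.08, 5.04 and 5.02 with PBS. The LPS and PBS arrays did not overlap in either genotype, and the same-numbered arrays of the genotypes differed by -0.06 to 0.08 with LPS and by -0.12 to 0.08 with PBS. Nr1h2 rose 1.42-fold in ERRα-/- cells, a log2 difference of 0.51 ± 0.12 (SE, adjusted p = 0.0058), and 1.40-fold in ERRα+/+ cells, a log2 difference of 0.49 ± 0.12 (adjusted p = 0.0077). With slide as a block the rise was called in both (adjusted p = 7.3e-04 and 9.9e-04). It was also called within the second slide, at 0.56 and 0.48 (adjusted p = 7.7e-04 and 0.0016). The ERRα+/+ difference was 0.52 with slide as a block and without the 2 arrays of wide spread. The rise was called in all 12 fits that left out 1 array. It depended on the scaling: after quantile normalization, which moved the median LPS difference of all genes to -0.15 in ERRα-/- and -0.14 in ERRα+/+ cells, against 0.05 and 0.02 as scaled here, it was -0.03 and 0.04.

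Nr1h3, LXRα, is the LXR whose own gene is an LXR target in human macrophages. Its brighter probe measured 6.30, 5.15 and 4.98 in ERRα-/- cells given LPS, against 5.31, 4.08 and 4.03 with PBS. In ERRα+/+ cells it measured 6.35, 6.05 and 5.95 with LPS, against 5.61, 4.75 and 4.73 with PBS. Each slide showed a higher level with LPS, and replicate 1 was the highest array of every group, so that the ERRα-/- groups overlapped while the ERRα+/+ groups did not. The log2 difference was 1.00 ± 0.43 in ERRα-/- cells (adjusted p = 0.073) and 1.09 ± 0.43 in ERRα+/+ cells (adjusted p = 0.059), neither of which passed. With slide as a block Nr1h3 rose in both, with adjusted p of 0.0010 and 7.4e-04, and with the replicate number as a block, 0.0021 and 0.0016. On the second slide alone it rose by 1.01 (adjusted p = 8.3e-05) and 1.26 (adjusted p = 3.2e-05). The second probe gave log2 differences of 0.95 and 0.94. After quantile normalization the brighter probe's differences were 0.55 and 0.65, adjusted p = 0.39 and 0.32.

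**Figure D1:**
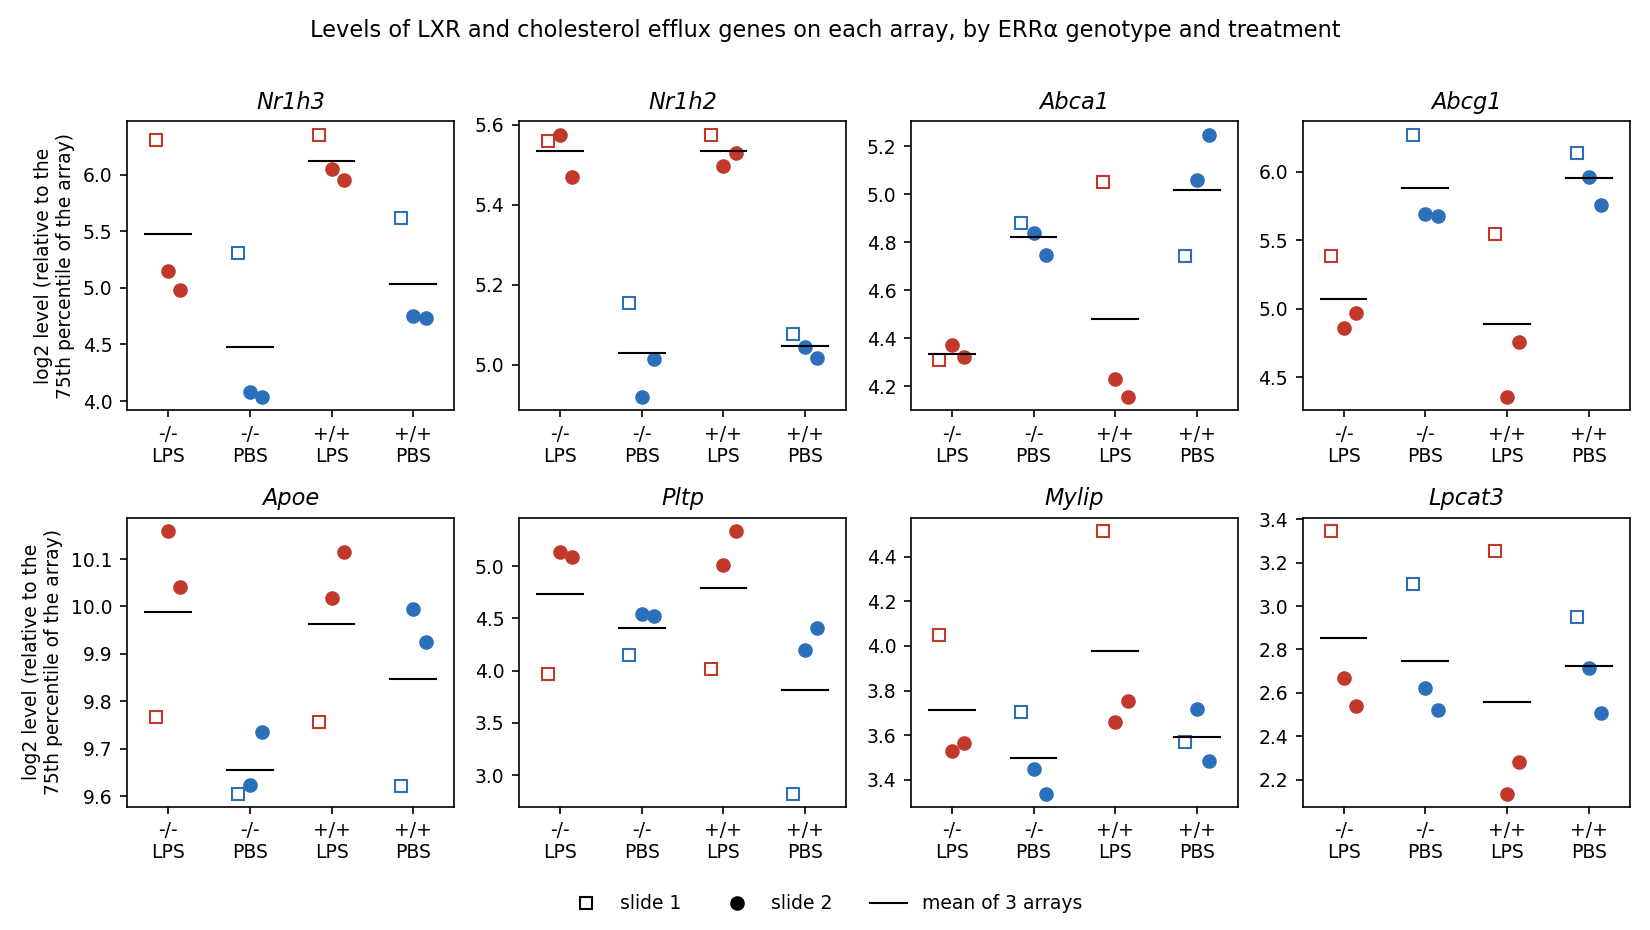
Level of each of the 8 genes on each array (log2 of the processed signal relative to the 75th percentile of the array; Nr1h3 and Mylip by their brighter probe), with squares for slide 1, circles for slide 2, red for LPS, blue for PBS and a line at the mean of the 3 arrays; each panel has its own vertical scale. Nr1h2 separated LPS from PBS in both genotypes, and in Nr1h3 the slide 1 array was the highest of every group.

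Of the 2 transporters, Abcg1 fell with LPS in both genotypes and Abca1 did not pass the test. Abcg1, which exports cholesterol to high-density lipoprotein, measured 5.38, 4.86 and 4.97 in ERRα-/- cells given LPS, against 6.27, 5.69 and 5.67 with PBS. In ERRα+/+ cells Abcg1 measured 5.55, 4.36 and 4.75 with LPS, against 6.13, 5.96 and 5.76 with PBS. No LPS array reached any PBS array of its genotype. Abcg1 fell by 0.81 ± 0.30 on the log2 scale, to a level 1.75-fold lower, in ERRα-/- cells (adjusted p = 0.042). In ERRα+/+ cells it fell by 1.06 ± 0.30, to a level 2.09-fold lower (adjusted p = 0.013). Leaving out 1 array at a time kept the call in 4 of 12 fits for ERRα-/- cells, with adjusted p of 0.012 to 0.14. It was lost without any 1 of the ERRα-/- PBS arrays, ERRα-/- LPS replicate 2 or 3, ERRα+/+ PBS replicate 2 or 3, or ERRα+/+ LPS replicate 3. For ERRα+/+ cells it was kept in 11 of 12, with adjusted p of 0.0014 to 0.059, and lost without LPS replicate 2. The fall was called in both genotypes with slide as a block (adjusted p of 0.0020 and 4.6e-04) and within the second slide (0.0034 and 3.0e-04). With slide as a block and without the 2 arrays of wide spread, the ERRα+/+ difference was -0.79.

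Abca1, which loads cholesterol and phospholipid onto apolipoprotein A-I, measured 4.31, 4.37 and 4.32 in ERRα-/- cells given LPS, against 4.88, 4.84 and 4.75 with PBS. ERRα+/+ cells had Abca1 levels of 5.05, 4.23 and 4.15 with LPS, against 4.74, 5.06 and 5.25 with PBS. The ERRα-/- groups did not overlap, whereas in ERRα+/+ cells replicate 1, on the first slide, went the other way from replicates 2 and 3. The log2 difference was -0.49 ± 0.23 in ERRα-/- cells (adjusted p = 0.0998) and -0.54 ± 0.23 in ERRα+/+ cells (adjusted p = 0.077), neither called. Within the second slide the differences were -0.45 and -0.96, both called (adjusted p = 0.0047 and 1.4e-04), and on the first slide, with 1 array per group and no test, -0.57 and 0.31. In ERRα+/+ cells the difference with slide as a block was -0.54 (adjusted p = 0.057), and -0.06 (adjusted p = 0.885) when the 2 PBS arrays of wide spread between spots were left out as well. With quantile normalization Abca1 fell in both genotypes, by 0.92 and 0.94 on the log2 scale (adjusted p = 0.015 and 0.014).

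Apoe, the lipid-binding apolipoprotein that macrophages secrete, was read by a probe with 10 spots per array. It measured 9.77, 10.16 and 10.04 in ERRα-/- cells given LPS, against 9.61, 9.62 and 9.74 with PBS. In ERRα+/+ cells Apoe measured 9.76, 10.02 and 10.12 with LPS, against 9.62, 10.00 and 9.92 with PBS. The lowest LPS array of ERRα-/- cells stood just above the highest PBS array, and the ERRα+/+ groups overlapped. The log2 differences of 0.33 ± 0.17 in ERRα-/- cells (adjusted p = 0.12) and 0.12 ± 0.17 in ERRα+/+ cells (adjusted p = 0.59) were not called. With slide as a block Apoe rose in ERRα-/- cells (adjusted p = 0.014, and 0.023 with the replicate number as a block) and was not called in ERRα+/+ cells (0.32). On the second slide alone the ERRα-/- difference was 0.42 (adjusted p = 0.0047). Both differences turned negative, -0.14 and -0.09, with quantile normalization. Before scaling, the processed signal of ERRα-/- cells was lower with LPS in every same-numbered pair (438278 against 477183, 330805 against 382594 and 312332 against 356245). The 75th percentile over the array's spots was also lower with LPS in these pairs (575 against 701, 340 against 563 and 346 against 480). It is not the value used for scaling, which was taken over probes.

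Pltp, the phospholipid transfer protein that moves phospholipid between lipoproteins, varied most between slides. It measured 3.97, 5.14 and 5.08 in ERRα-/- cells given LPS, against 4.15, 4.54 and 4.53 with PBS. ERRα+/+ cells had Pltp levels of 4.02, 5.01 and 5.34 with LPS, against 2.82, 4.20 and 4.41 with PBS. Replicate 1 was the lowest array of every group. The log2 differences were 0.32 ± 0.48 in ERRα-/- cells (adjusted p = 0.60) and 0.98 ± 0.48 in ERRα+/+ cells (adjusted p = 0.12). With slide as a block Pltp rose in ERRα+/+ cells (adjusted p = 0.0027; 0.0048 with the replicate number as a block), and within the second slide it rose in both genotypes, by 0.58 (adjusted p = 0.0068) and 0.87 (adjusted p = 0.0011); with quantile normalization the difference in ERRα-/- cells was -0.16. Without the 2 arrays of wide spread and with slide as a block, the ERRα+/+ difference was 1.37 (adjusted p = 0.012).

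Mylip encodes IDOL, an E3 ubiquitin ligase that targets lipoprotein receptors, among them the VLDL receptor and ApoE receptor 2, for degradation. Its brighter probe measured 4.05, 3.53 and 3.57 in ERRα-/- cells given LPS, against 3.71, 3.45 and 3.34 with PBS. ERRα+/+ cells had Mylip levels of 4.52, 3.66 and 3.75 with LPS, against 3.57, 3.72 and 3.48 with PBS. The groups overlapped in both genotypes, and the log2 differences of 0.22 ± 0.24 in ERRα-/- cells (adjusted p = 0.48) and 0.39 ± 0.24 in ERRα+/+ cells (adjusted p = 0.21) were not called. With slide as a block they were 0.22 (adjusted p = 0.26) and 0.39 (adjusted p = 0.062). Within the second slide they were 0.15 (adjusted p = 0.21) and 0.11 (adjusted p = 0.38). Without the 2 arrays of wide spread and with slide as a block, the ERRα+/+ difference was 0.77. That fit kept 1 ERRα+/+ PBS array, on the first slide, where the difference was 0.94. The dimmer probe gave 0.08 and 0.31. Of the receptors that IDOL acts on, Vldlr had LPS differences of 0.60 ± 0.64 in ERRα-/- and 0.82 ± 0.64 in ERRα+/+ cells, and Lrp8, ApoE receptor 2, of 0.01 ± 0.58 and 0.31 ± 0.58; none was called, and Lrp8 was well above background on 8 of 12 arrays. Vldlr rose in both genotypes with slide as a block (adjusted p = 0.013 and 0.0027).

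Lpcat3, an acyltransferase that places polyunsaturated fatty acids into membrane phospholipids, measured 3.35, 2.67 and 2.54 in ERRα-/- cells given LPS, against 3.10, 2.62 and 2.52 with PBS. ERRα+/+ cells had Lpcat3 levels of 3.25, 2.14 and 2.28 with LPS, against 2.95, 2.72 and 2.51 with PBS. All 4 groups overlapped, with replicate 1 highest in each. The log2 differences were 0.10 ± 0.32 in ERRα-/- cells (adjusted p = 0.81) and -0.17 ± 0.32 in ERRα+/+ cells (adjusted p = 0.69). Within the second slide the ERRα+/+ difference was -0.40 (adjusted p = 0.015), while the first slide had 0.30.

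**Figure D2:**
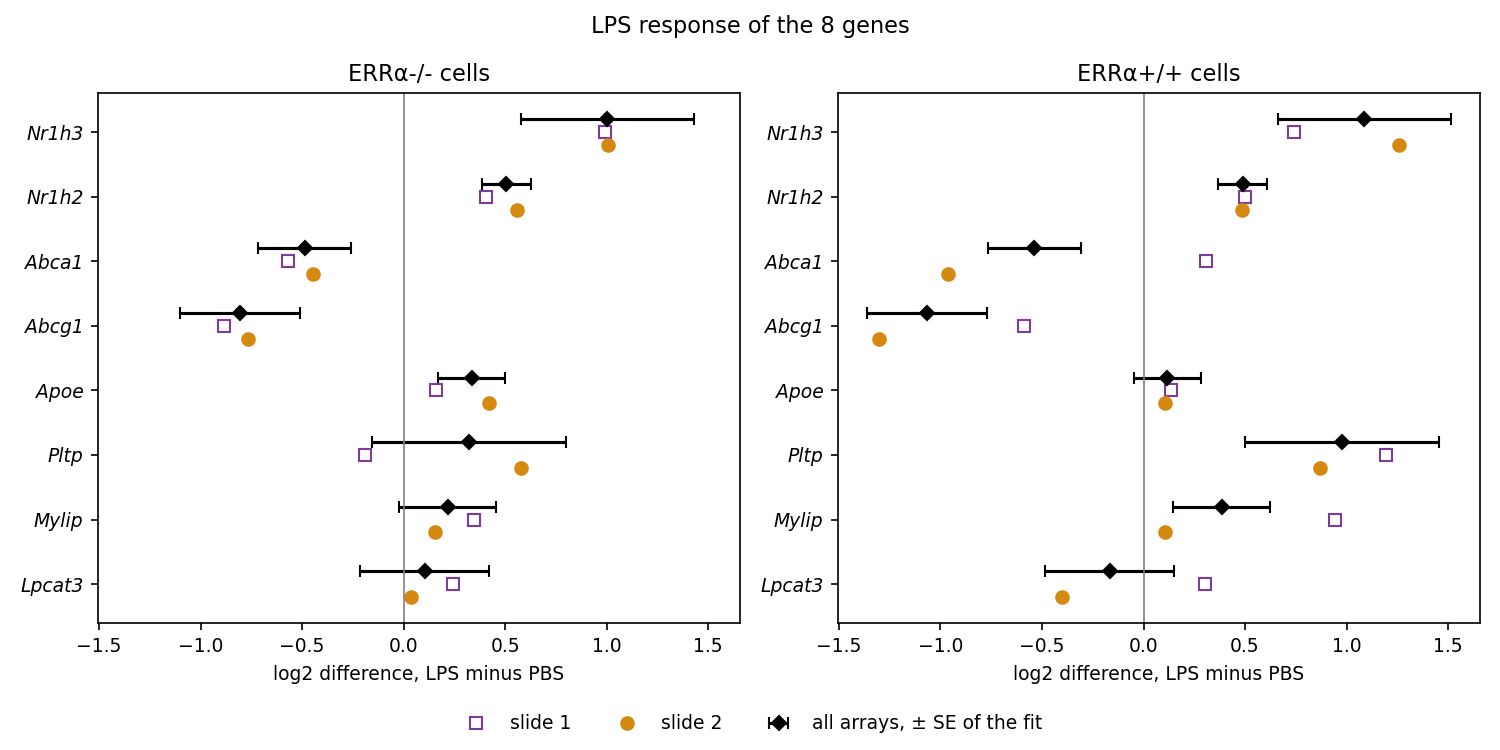
Log2 difference between LPS and PBS for each gene in ERRα-/- (left) and ERRα+/+ cells (right), for all 12 arrays with the standard error of the fit (black), for slide 1 with 1 array per group (open squares) and for slide 2 with 2 arrays per group (orange). Nr1h2 and Abcg1 passed the test in both genotypes, and the slides disagreed in sign for Pltp in ERRα-/- cells and for Abca1 and Lpcat3 in ERRα+/+ cells.

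By count, 2 of the 8 genes were called in ERRα-/- cells, Nr1h2 higher and Abcg1 lower, and 50.4% of all genes tested were called in that comparison (25.1% higher and 25.3% lower). The same 2 genes were called in ERRα+/+ cells, where 45.9% of all genes were called (22.2% higher and 23.7% lower). The LPS and PBS arrays did not overlap for 4 of the 8 genes in ERRα-/- cells (Nr1h2, Abca1, Abcg1 and Apoe), against 59.6% of all genes, and for 3 of 8 in ERRα+/+ cells (Nr1h2, Nr1h3 and Abcg1), against 53.9%. The share of these genes that responded was thus near or below that of the array as a whole. The median log2 difference of the 8 genes was 0.27 in ERRα-/- and 0.25 in ERRα+/+ cells, against 0.05 and 0.02 over all genes. With quantile normalization it was -0.12 and -0.02, against -0.15 and -0.14 over all genes. With slide as a block, 4 of 8 were called in each genotype (65.5% and 62.7% of all genes), with the replicate number as a block also 4 of 8 (63.7% and 60.5%), and within the second slide 6 of 8 (73.7% and 72.3%). With quantile normalization 2 of 8 were called in each genotype, Abca1 and Abcg1, both lower (50.1% and 46.7% of all genes).

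Between the genotypes no member passed the test over both slides. Averaged over LPS and PBS, Nr1h3 had the largest difference of the 8. Nr1h3 was lower in ERRα-/- cells in all 6 same-numbered pairs, by 0.05, 0.90 and 0.98 on the log2 scale with LPS and by 0.30, 0.67 and 0.70 with PBS. The gap on the first slide, 0.05 and 0.30, was smaller than on the second. Averaged over LPS and PBS the difference was -0.60 ± 0.30 (adjusted p = 0.60), a level 1.52-fold lower, and -0.65 by the second probe. With slide as a block its adjusted p was 0.030, where 4.96% of all genes were called, with the replicate number as a block 0.051, and without the 2 arrays of wide spread and with slide as a block 0.155 at a difference of -0.57. Within the second slide its averaged difference was -0.81 (adjusted p = 0.0016), where 20.4% of all genes were called, and Nr1h3 was lower by 0.94 with LPS (adjusted p = 0.0043) and by 0.68 with PBS (adjusted p = 0.010), where 16.9% and 9.55% of all genes were called.

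The other 7 genes had genotype differences, averaged over LPS and PBS, between -0.18 for Mylip and 0.27 for Pltp, with standard errors of 0.09 to 0.34. For Nr1h2 the difference was -0.01 ± 0.09, for Abca1 -0.17 ± 0.16, for Abcg1 0.06 ± 0.21 and for Apoe -0.08 ± 0.12. Pltp differed by treatment in these values, with -0.06 ± 0.48 given LPS and 0.60 ± 0.48 given PBS. The PBS value was the largest of the 8 genes in that comparison. It was higher in ERRα-/- cells in all 3 same-numbered pairs, by 1.33, 0.34 and 0.12, and was not called (adjusted p = 0.23 with slide as a block). None of the 7 was called over both slides or within the second slide. Of the 8 genes, 0 were called averaged over treatments, with LPS or with PBS, where 1.36%, 0.13% and 0.427% of all genes were called. At an unadjusted p under 0.05, 0 of 8 passed in these 3 comparisons, and the groups overlapped for all 8 genes (they did not for 12% of all genes with LPS and 14.2% with PBS). Levels of each gene in ERRα-/- and ERRα+/+ cells of the same treatment therefore did not differ beyond their spread, except Nr1h3 as given above, and this does not show that they are equal.

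**Figure D3:**
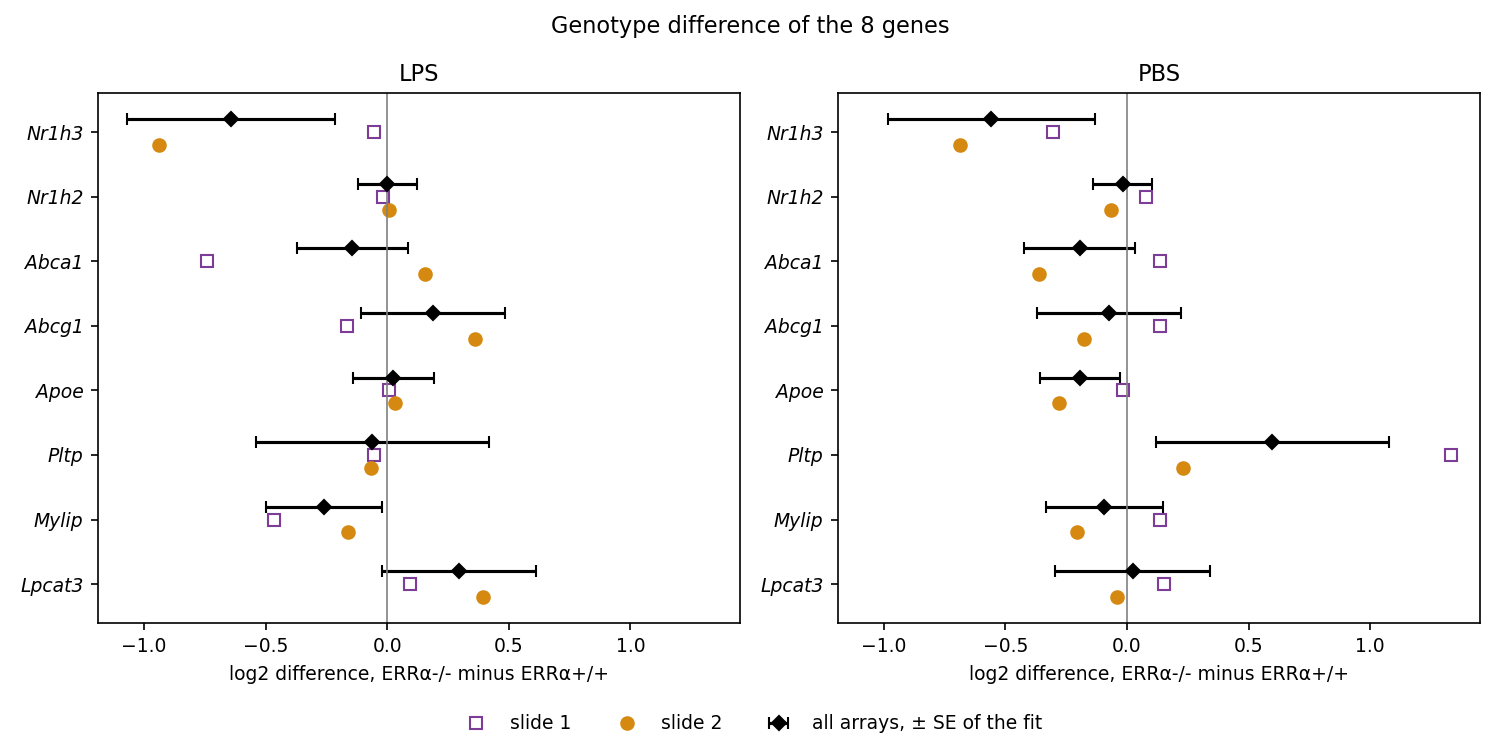
Log2 difference between ERRα-/- and ERRα+/+ cells for each gene with LPS (left) and PBS (right), for all arrays with the standard error of the fit (black), for slide 1 (open squares) and for slide 2 (orange). Nr1h3 was below 0 on both slides and in both treatments, and the slides disagreed in sign for Nr1h2, Abca1 and Abcg1 in both.

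The LPS response itself was compared between the genotypes by an interaction contrast, which asks whether the change with LPS differed. It was called for 0 of 8 genes and for 0% of the 13116 genes tested, and none of the 8 had an unadjusted p under 0.05. The differences of the response, ERRα-/- minus ERRα+/+, ran from -0.66 ± 0.68 for Pltp to 0.27 ± 0.45 for Lpcat3, and were -0.08 ± 0.60 for Nr1h3, 0.02 ± 0.17 for Nr1h2, 0.05 ± 0.32 for Abca1 and 0.26 ± 0.42 for Abcg1. Within the second slide, where 4.19% of all genes were called, 0 of the 8 were called, although Abca1, Abcg1, Apoe and Lpcat3 had an unadjusted p under 0.05. The smallest adjusted p there was that of Abca1, 0.082, at a difference of 0.52, and on the first slide the difference was -0.88. Since this contrast uses the same PBS and LPS arrays as the comparisons above, it is not separate support for them.

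The partners and cofactors of the receptors were called in both directions with LPS. Of 13 such genes, 2 rose and 6 fell in ERRα-/- cells and 2 rose and 4 fell in ERRα+/+ cells, where 50.4% and 45.9% of all genes tested were called, with median differences of -0.26 and -0.17. Rxra, an RXR that pairs with LXRs, measured -2.86, -3.39 and -2.80 in ERRα-/- cells given LPS, against -1.80, -1.99 and -1.99 with PBS, and -2.47, -2.90 and -2.46 in ERRα+/+ cells given LPS, against -1.77, -1.19 and -1.62 with PBS. Rxra fell by 1.09 ± 0.22 in the ERRα-/- comparison (adjusted p = 0.0020). The fall in ERRα+/+ cells was of like size (-1.08 ± 0.22, adjusted p = 0.0024). Rxrb, a second RXR, fell by 1.16 ± 0.20 and 1.07 ± 0.20 (adjusted p = 9.2e-04 and 0.0016). The third RXR, Rxrg, went the other way and was called higher with LPS in both genotypes. Its mean level was 3.76 with LPS against 3.06 with PBS in ERRα-/- cells, and 3.75 against 3.08 in ERRα+/+ cells. Tbl1xr1, a subunit of a nuclear receptor corepressor complex, fell 4.68-fold and 5.49-fold, and the coactivator Ncoa3 2.28-fold and 2.82-fold. Tbl1x, a related corepressor subunit, rose 2.01-fold and 2.37-fold. The Ncoa3 call was kept in 10 of the 12 fits that left out 1 array for ERRα-/- cells and in 12 for ERRα+/+ cells.

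Among 14 further LXR target genes, 2 rose and 4 fell with LPS in ERRα-/- cells and 1 rose and 5 fell in ERRα+/+ cells, with median differences of -0.26 and -0.38. These 6 of 14 stand beside 50.4% and 45.9% of all genes called. When slide was a block, 3 rose and 6 fell in ERRα-/- cells and 2 rose and 9 fell in ERRα+/+ cells (65.5% and 62.7% of all genes), and with the replicate number as a block 3 and 6, and 2 and 7 (63.7% and 60.5%). Fads1, a fatty acid desaturase, fell 5.66-fold and 6.16-fold, and Acsl3, an acyl-CoA synthetase, 2.18-fold and 1.95-fold. Mertk, a receptor for the uptake of dying cells, fell 2.04-fold in ERRα+/+ cells (adjusted p = 0.040) and had a difference of -0.22 ± 0.36 in ERRα-/- cells. The difference between these responses was 0.80 ± 0.52 and was not called. Fads2, another desaturase, rose 2.66-fold in ERRα-/- cells (adjusted p = 0.042), where 2 of 3 PBS arrays were well above background, and was not well above background in ERRα+/+ cells. It entered the tests only through the ERRα-/- LPS arrays, so this p-value is not free of that selection. The calls of Fads2 in ERRα-/- and of Mertk in ERRα+/+ cells were kept in 4 and 6 of the 12 fits that left out 1 array, and those of Acsl3 in 8 and 5.

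Enzymes that make or clear the oxysterol ligands moved in both directions. Of 6 tested, 3 rose and 2 fell in ERRα-/- cells and 2 rose and 2 fell in ERRα+/+ cells. In these comparisons 50.4% and 45.9% of all genes tested were called. Ch25h, which makes the LXR ligand 25-hydroxycholesterol, measured 1.95, 5.64 and 5.51 in ERRα-/- cells given LPS, against -3.59, -3.13 and -3.37 with PBS. In ERRα+/+ cells it measured 1.01, 4.23 and 4.13 with LPS, against -4.56, -3.31 and -3.71 with PBS. The lowest LPS array stood far above the highest PBS array in both genotypes, and the log2 differences were 7.73 ± 1.03 and 6.98 ± 1.03 (adjusted p = 2.1e-04 and 4.2e-04). Cyp27a1, the mitochondrial sterol 27-hydroxylase, went the other way and fell 4.61-fold and 5.53-fold. Cyp7b1, which clears oxysterols, was well above background only in ERRα+/+ cells given LPS, where it was at least 3.91-fold higher than with PBS (adjusted p = 8.4e-05). It entered the tests only through the arrays of that group, so this p-value is not free of that selection. Its call in ERRα-/- cells, among the 3 that rose, compared groups that were both not well above background. No fold is given for it.

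Most sterol synthesis genes rose with LPS, while lipoprotein uptake receptors moved in both directions. Of 10 genes of sterol synthesis and its control by SREBP, 6 rose in ERRα-/- cells and 7 in ERRα+/+ cells, and 0 fell in either. The median differences were 1.74 and 1.34, and 50.4% and 45.9% of all genes tested were called (25.1% and 22.2% higher). With quantile normalization 6 rose and 1 fell in ERRα-/- cells and 6 rose and 0 fell in ERRα+/+ cells (50.1% and 46.7% of all genes). Idi1, which makes an isoprenoid precursor, rose 5.35-fold and 3.40-fold. Hmgcs1, an early enzyme of the pathway, rose 4.28-fold and 2.45-fold, and Insig1, which holds SREBP inactive, 3.44-fold and 2.97-fold. Of 8 uptake receptors, 3 rose and 1 fell in ERRα-/- cells and 3 rose and 2 fell in ERRα+/+ cells. With quantile normalization 3 rose and 3 fell in each. These counts stand beside the same 50.4% and 45.9% of all genes (50.1% and 46.7% with quantile normalization). The scavenger receptor Msr1 rose 12.8-fold and 10.3-fold. Olr1, a scavenger receptor for oxidised lipoprotein, was not well above background with PBS and was at least 14.4-fold higher with LPS in ERRα-/- cells and at least 22.3-fold higher in ERRα+/+ cells. It entered the tests only because its LPS arrays were well above background, so its calls are not free of that selection. Of 8 genes of cholesterol storage and transport, 3 rose and 4 fell in each genotype, again beside 50.4% and 45.9% of all genes. Nceh1 and Soat1, which hydrolyse and form cholesteryl esters, fell 5.25-fold and 7.91-fold, and 2.99-fold and 3.95-fold, while Stard3, which binds cholesterol on late endosomes, rose 2.94-fold and 2.84-fold.

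**Figure D4:**
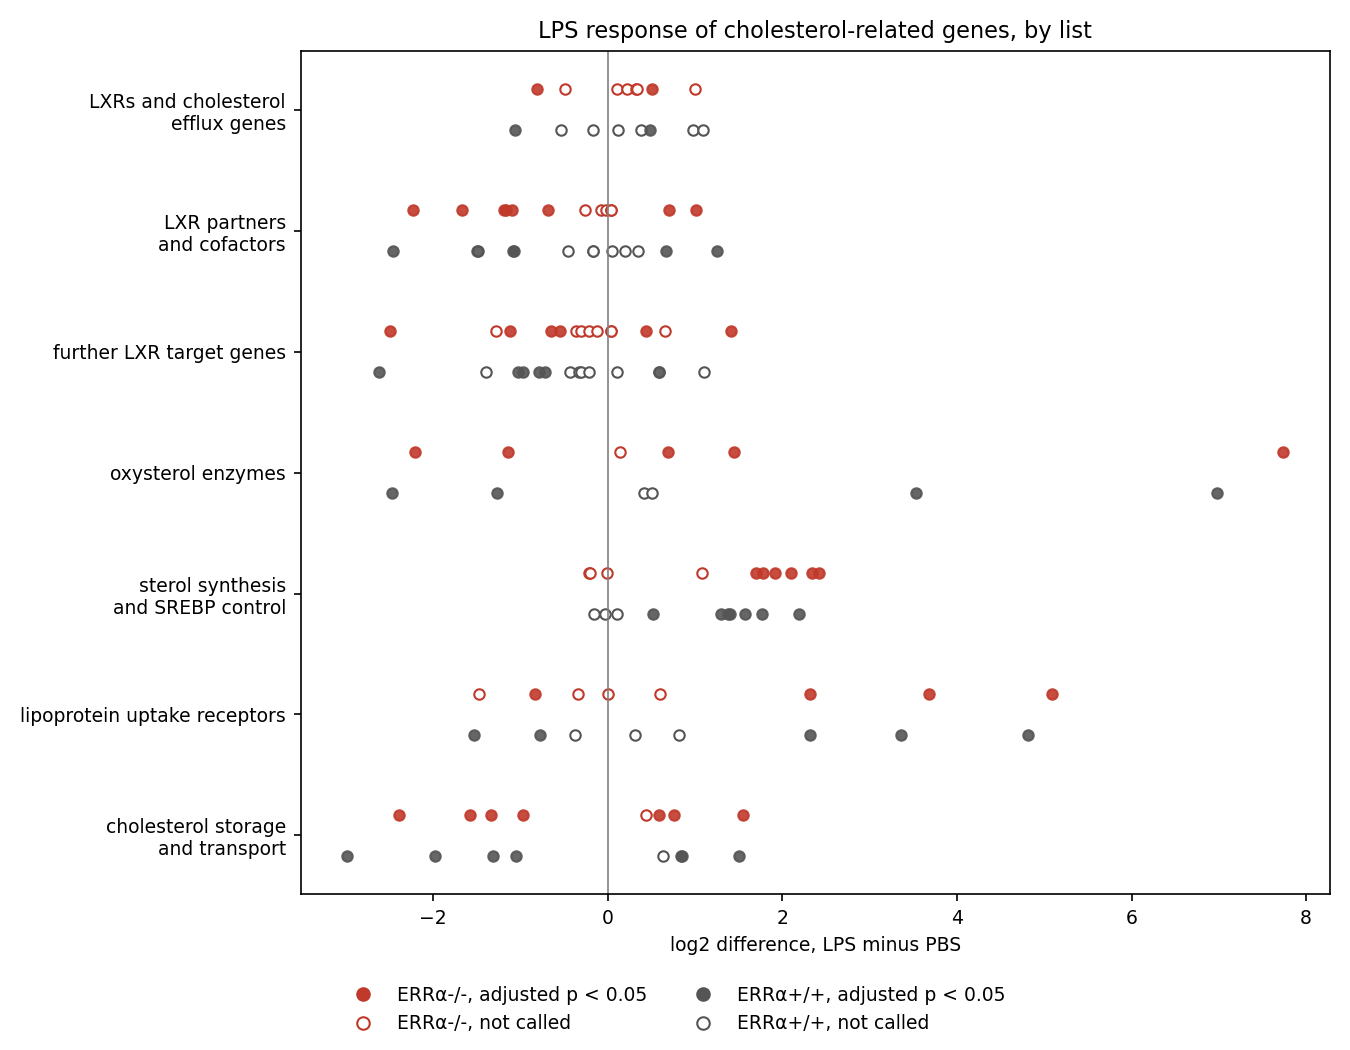
Log2 difference between LPS and PBS for every tested gene of 7 lists, in ERRα-/- (red, upper row of each pair) and ERRα+/+ cells (grey, lower row); filled points passed the test and open points did not. The 8 LXR and efflux genes lay between -1.06 and 1.09, while Ch25h, the rightmost point, was near 7 to 8.

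Several sterol genes outside the 8 differed between the genotypes when averaged over LPS and PBS, all of them higher in ERRα-/- cells. Of the 10 sterol synthesis genes 4 were called: Idi1 (2.47-fold), Sqle (2.21-fold), Cyp51 (2.05-fold) and Insig1 (1.95-fold), where 1.36% of all genes were called. With slide or replicate number as a block 6 of the 10 were called, where 650 and 499 of all 13116 genes tested were called. Scarb1, a receptor for high-density lipoprotein, was 1.92-fold higher (adjusted p = 0.0057). Cyp27a1 was 1.52-fold higher and Stard4, a carrier of cholesterol in the cytosol, 1.65-fold. Leaving out 1 array kept the calls of Sqle, Cyp51 and Scarb1 in all 12 fits, those of Idi1 and Insig1 in 3, and of Cyp27a1 and Stard4 in 1. With LPS, Cyp51 was called (2.44-fold higher, adjusted p = 0.026), in 4 of the 12 fits that left out 1 array. Of the partners and cofactors 0 of 13, and of the further LXR targets 0 of 14, were called between the genotypes. With slide or replicate number as a block, averaged over treatments, 3 of the 14 further targets were called higher and 0 of the 13 partners were called. On the second slide alone, where 20.4% of all genes were called, 5 further targets were higher, 3 partners higher and 1 lower. Vldlr and Lrp8 had averaged genotype differences of -0.50 ± 0.45 and -0.59 ± 0.41, and Rxra and Rxrb of -0.40 ± 0.15 and -0.25 ± 0.14, none of them called. Vldlr had an adjusted p of 0.049 with slide as a block.

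Over the 12 arrays the 8 genes did not follow 1 pattern. As a description over arrays that share groups and slides, Abca1 and Abcg1 had a Pearson correlation of 0.78, Nr1h2 and Nr1h3 of 0.77, and Apoe and Pltp of 0.73. Between these pairs the correlation was -0.72 for Nr1h2 with Abcg1 and -0.76 for Abcg1 with Pltp. Of 13101 tested genes with a value on every array, those most like each member were Trmt61a (0.97) and Cct7 (0.96) for Nr1h3, Dnajb2 (0.996) and Zdhhc18 (0.990) for Nr1h2, Trnp1 (0.95) and Cat (0.93) for Abca1, and Abhd17a (0.98) and Hps1 (0.97) for Abcg1. For Apoe they were Ptk7 (0.97) and Vmn1r217 (0.964), for Pltp Cd99 (0.97) and Swap70 (0.95), for Mylip Gclm (0.94) and Zdhhc12 (0.93), and for Lpcat3 G6pdx (0.94) and Ddost (0.93), all given as Pearson correlations.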

How the data were processed

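Processed signal intensity was deposited for 12 arrays; per the file headers it was made with Agilent Feature Extraction 11.5.1.1, with the background subtracted and trends removed within the array, while version 9.3.2.1 stands in the submitters' processing notes. The deposited value table holds the same intensity at all 62976 spots. Control spots were removed, spots marked non-uniform were set aside (35 missing values), and spots of a probe were averaged. The log2 intensity, computed here from the deposited signal, is relative to the array's 75th percentile over probes, each counted once. Taken over single spots without controls, the 75th percentile was 340 to 701 in signal units. No spot was saturated, 46.3% to 57.4% of spots per array were well above background, and the number of arrays limits the precision.

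Genes were named by transcript accession through a RefSeq table. A probe entered the tests if some group had all 3 of its arrays well above background for it, and the brightest such probe stood for the gene. One limma 3.58.1 model (R 4.3.3) over the 4 groups gave 6 contrasts. The procedure was tested on simulated data.

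The labels number the replicates 1 to 3. Same-numbered arrays of different groups deviated together in all pairs. The correlations were 0.24 to 0.78 for number 1, 0.14 to 0.65 for 2 and 0.22 to 0.59 for 3. Numbers 2 and 3, which share a slide, correlated with each other about as much (0.13 to 0.56). The median there was 0.24, against 0.23 within number 2 and 0.30 within number 3. For 11 of 12 arrays the most correlated array of another group had the same number. As numbers and slides overlap, these values cannot settle whether the numbers pair the arrays. The labels state no pairing, and the main fit, over all 12 arrays, had no block. Alternatives were slide or replicate number as a block, the second slide alone, quantile normalization, normexp background correction, probe filters, probe averaging, the value table and leaving out each array. A fit without the 2 arrays of wide spread between spots, with slide as a block, was chosen after seeing the data. The members and lists were chosen with earlier results of these data known. Beside the members, the text names Esrra, markers, Vldlr, Lrp8, Rxra, Rxrb, Rxrg and the 2 genes most correlated with each member. Of each list it names up to 3 called genes with the largest LPS difference in each genotype and up to 5 between the genotypes. Where a group was not well above background on any array, a fold is a bound, against the higher of the probe's own level and the lowest level well above background on each array. Apoc2, Cd68 and Ly6g were not matched, and Sult2b1 and Abcg4 did not pass the filter. Some genes that this rule covers are not reported here.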

Additional observations from a re-analysis of the deposited data

How the results depend on the processing

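Over the 8 genes and 6 comparisons, 48 values were each recomputed under the alternatives: 419 kept their direction and their side of the threshold, 27 passed it in addition, 2 no longer passed and 32 changed sign. Leaving out each array in turn gave 516, 9, 9 and 42. The 2 calls lost were those of Abcg1 with LPS in ERRα-/- cells with no filter on dim probes (adjusted p = 0.083) and of Nr1h2 with LPS in ERRα+/+ cells with quantile normalization (adjusted p = 0.86), which also turned Nr1h2 in ERRα-/- cells. Using the deposited value table, the mean of a gene's probes or only probes well above background on all 12 arrays changed no call or sign. These settings could change little. The value table holds the same intensity, most of the 8 genes had 1 probe, and all 10 of their probes were well above background on every array. Each of these settings gave 48 of the 419 values that kept their result. Most sign changes were of small differences, and the causes were not tested. With 3 arrays per group on 2 slides, the number of arrays limits the precision.

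Genes called with LPS in ERRα+/+ cells numbered 6020, and 9482 on the second slide alone. For the genotype averaged over treatments, 179 genes were called, 118 with normexp, 92 with no filter, 650 with slide as a block, 2673 on the second slide, 499 with the replicate block, 501 with slide as a block and without the 2 arrays of wide spread, and 84 to 261 when 1 array was left out. With PBS, 56 were called, 5 with no filter, 278 with slide as a block, 1253 on the second slide, 193 with the replicate block, 176 with slide as a block and without those 2 arrays, and 3 to 81 when 1 array was left out. With LPS, 17 were called, 6 with no filter, 211 with slide as a block, 2216 on the second slide, 132 with the replicate block, 187 with slide as a block and without those 2 arrays, and 3 to 42 when 1 array was left out. The difference of the response was called for 0 genes, 1 with normexp, 550 on the second slide and 28 with slide as a block and without those 2 arrays (slide as a block alone called 0). The replicate block changed the calls of Nr1h3 in both genotypes, Apoe in ERRα-/- and Pltp in ERRα+/+ cells with LPS, given above, and no other call of the 8 genes.

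Quantile normalization turned the LPS difference negative in ERRα-/- cells for Nr1h2 (-0.0272), Apoe (-0.14), Mylip (-0.0743), Lpcat3 (-0.0989) and Pltp (-0.157), and in ERRα+/+ cells for Apoe (-0.0894). It turned the averaged genotype difference of Abcg1 (-0.0164), the genotype differences with LPS of Nr1h2 (-0.1) and Apoe (-0.12), and the response differences of Nr1h2 (-0.0667) and Apoe (-0.0505). Normexp turned the LPS difference of Lpcat3 in ERRα+/+ cells (0.0529), the genotype differences with PBS of Abca1 (0.0762) and Mylip (0.117), that with LPS of Nr1h2 (-0.00187), and the response differences of Nr1h3 (0.0166) and Abca1 (-0.249). The second slide alone turned the genotype difference of Lpcat3 with PBS (-0.0406), that of Abca1 with LPS (0.155) and the response difference of Mylip (0.0476). With slide as a block and without the 2 arrays of wide spread, chosen after seeing the data, the LPS difference of Lpcat3 in ERRα+/+ cells was 0.122. The averaged genotype difference was then 0.00845 for Nr1h2, 0.0687 for Abca1 and 0.0134 for Mylip, and that with PBS 0.0165 for Nr1h2, 0.281 for Abca1, 0.198 for Abcg1 and 0.288 for Mylip. The response difference was then -0.016 for Nr1h2, -0.424 for Abca1, -0.0116 for Abcg1 and -0.0175 for Lpcat3.

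When 1 array was left out, these ranges crossed 0. The LPS difference of Lpcat3 ran from -0.143 to 0.281 in ERRα-/- and from -0.515 to 0.0431 in ERRα+/+ cells. Averaged genotype differences ran from -0.0396 to 0.0194 for Nr1h2 and from -0.0756 to 0.222 for Abcg1. With PBS they ran from -0.0796 to 0.0384 for Nr1h2, from -0.269 to 0.0294 for Abcg1 and from -0.153 to 0.138 for Lpcat3. With LPS they ran from -0.0202 to 0.0331 for Nr1h2, from -0.306 to 0.143 for Abca1, from -0.0783 to 0.517 for Abcg1, from -0.0777 to 0.137 for Apoe, from -0.429 to 0.00902 for Mylip and from -0.446 to 0.322 for Pltp. Response differences ran from -0.038 to 0.0801 for Nr1h2, from -0.496 to 0.333 for Nr1h3, from -0.111 to 0.337 for Abca1, from -0.00537 to 0.59 for Abcg1 and from -0.336 to 0.102 for Mylip.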
